A study of Mus musculus with 18 samples.

Results

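The transcripts followed here were 10 listed tight junction genes, the claudins Cldn1, Cldn2, Cldn3, Cldn4, Cldn7, Cldn15 and Cldn23, occludin (Ocln), junctional adhesion molecule A (F11r) and zonula occludens 1 (Tjp1). They were matched by symbol to Ensembl IDs in a table of 54532 genes, and all 10 were among the 16257 genes with enough counts to be tested. Tight junctions are the seals that join neighbouring epithelial cells near their apical surface and set what passes between the cells. Claudins are the membrane proteins that build the strands of these seals; some form pores for ions and water, and others close the space between cells. Occludin and the junctional adhesion molecules lie in or beside the strands, and scaffold proteins of the zonula occludens family tie them to actin.

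RNA came from whole jejunum, the middle part of the small intestine, of C57BL/6 mice, an inbred laboratory strain, aged 8 to 12 weeks. FLASH mice (7 libraries) received 15 Gy to the whole abdomen in a single fraction at an ultra-high dose rate, CONV mice (5 libraries) received the same dose at a conventional rate, and control mice (6 libraries) were not irradiated. Tissue from irradiated mice was taken 16 h after the dose. The comparisons ask how junction transcripts differed between each dose rate and no irradiation, and between the dose rates. Library numbers are those of the labels.

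Libraries held 23.1 to 30.2 M estimated counts in FLASH, 19.9 to 27.0 M in CONV and 24.3 to 27.8 M in controls. Levels are CPM (estimated counts scaled to a common, composition-adjusted library size), and levels of different genes are compared only per kb of exon sequence. Whether every library is a separate mouse is not stated in the labels, and the p-values therefore measure spread among libraries. In whole tissue, fewer cells of a type and less RNA per cell cannot be told apart. Summed over 9 epithelial markers, levels were 10400 to 12500 CPM in FLASH, 8430 to 9610 CPM in CONV and 8170 to 12600 CPM in controls. Crypt markers (12 genes) summed to 2690 to 8270 CPM in FLASH, 7810 to 13800 CPM in CONV and 10600 to 14600 CPM in controls, and villus enterocyte markers (12 genes) to 50900 to 98900, 52300 to 103000 and 13600 to 41000 CPM in the same order. The part of these differences in the junction results was not tested. If levels are set by library totals, the median gene moves by -0.44 in FLASH against control, by -0.25 in CONV against control and by -0.18 in FLASH against CONV (log2), and all changes below are relative to the composition-adjusted scale. The 3 comparisons share libraries.

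Per kb of exon, Cldn7 was the most abundant of the 10 transcripts in every group, at 430 ± 112 CPM per kb in FLASH (SD, n = 7), 345 ± 34.8 in CONV (n = 5) and 341 ± 93.9 in controls (n = 6). In controls Cldn3 (202 ± 42.8 CPM per kb) and Cldn15 (194 ± 37.3) followed, and their ranges overlapped. F11r came next at 74.8 ± 11.1, with a range apart from both its neighbours. Cldn4 (39.4 ± 8.98), Ocln (31.6 ± 4.82), Cldn2 (18.2 ± 5.11), Cldn23 (12.9 ± 3.16) and Tjp1 (10.6 ± 3.95) followed in that order, and each of the first 4 of these overlapped the next. Cldn1 was close to the limit of detection in controls, at 0.0901 ± 0.0403 CPM per kb. In FLASH libraries Cldn15 kept its rank on average, but at 94.8 ± 65.8 CPM per kb it was higher than F11r in 3 of 7 libraries, against 5 of 5 in CONV and 6 of 6 in controls.

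**Figure D1:**
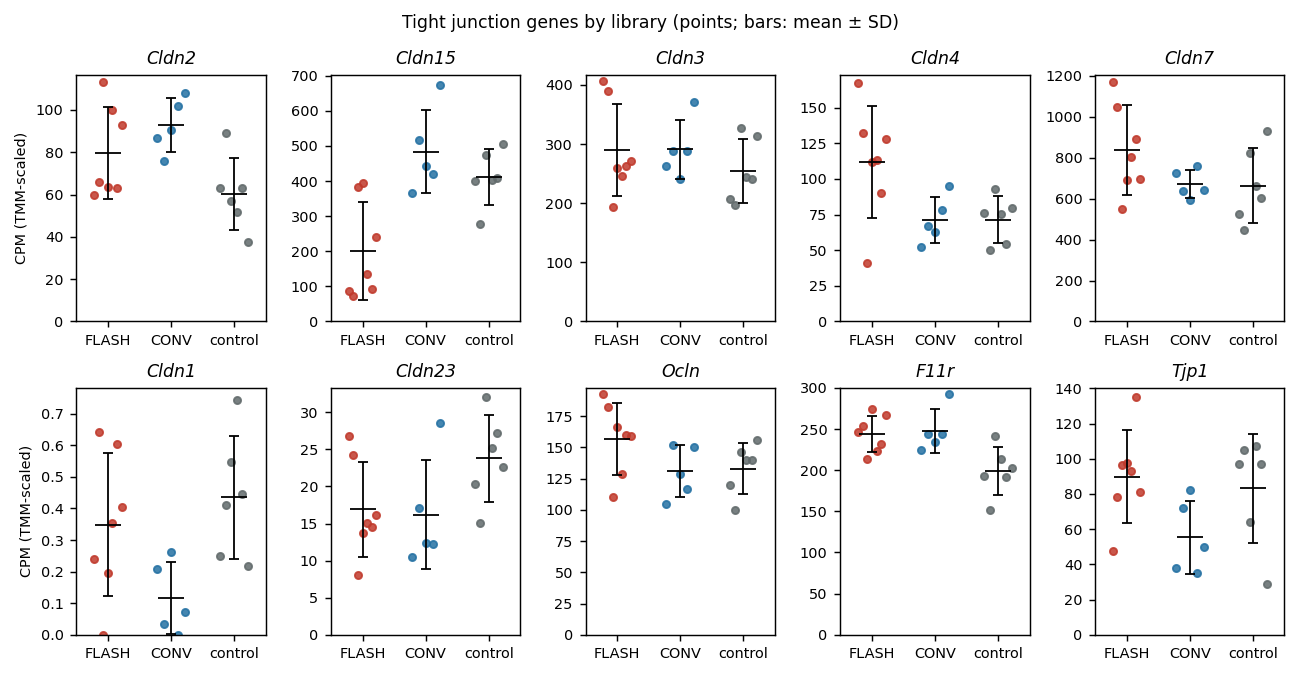
Level of each of the 10 genes in every library (CPM, a panel per gene with its own linear axis; points are libraries, bars the mean and SD; 7 FLASH, 5 CONV and 6 control libraries). Cldn15 spreads from 73.5 to 394 CPM in FLASH, against 367 to 673 CPM in CONV and 277 to 506 CPM in controls.

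In FLASH against control, 2 of the 10 genes passed an adjusted p of 0.05 in edgeR's quasi-likelihood test with Benjamini-Hochberg adjustment over all genes, Cldn4 higher and Cldn15 lower. Over all genes tested the share was 37.7% (16.7% higher, 21.0% lower); the share among these genes was not above it. In CONV against control 1 of 10 passed, Cldn2, which was higher, where 22.2% of all genes passed (10.2% higher, 12.0% lower). In FLASH against CONV 1 of 10 passed, Cldn15, which was lower, where 19.8% of all genes passed (9.88% higher, 9.91% lower). Of the passing genes 44.3%, 46.0% and 49.9% were higher in these 3 comparisons, against 17.4%, 24.2% and 24.4% on library totals, where Cldn15 still passed lower in FLASH against both groups and neither Cldn2 nor Cldn4 passed. On that scale the FLASH against control values of Cldn3 (-0.19), Cldn7 (-0.03), Ocln (-0.14), Tjp1 (-0.26) and F11r (-0.07), which were positive on the composition-adjusted scale, turned negative. Every gene had overlapping libraries in every comparison, whereas groups did not overlap for 13.8%, 10.4% and 8.53% of all genes in these 3 comparisons. The median log2 fold change of the 10 genes was 0.21 in FLASH against control, 0.00 in CONV against control and 0.17 in FLASH against CONV, beside -0.07, -0.04 and -0.02 over all genes tested.

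**Figure D2:**
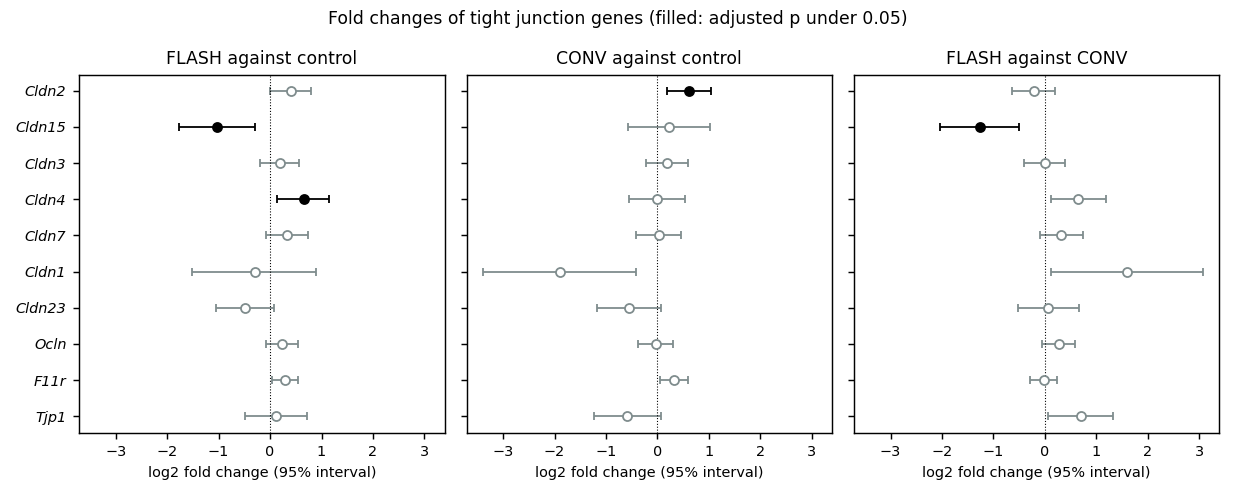
Log2 fold change of each gene with its 95% confidence interval, in panels for FLASH against control, CONV against control and FLASH against CONV; filled points passed an adjusted p of 0.05. Cldn15 lies at -1.03, 0.23 and -1.27 in the 3 panels, and most of the other intervals include 0.

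The transcripts that passed in some comparison were the pore-forming Cldn15 and Cldn2 and the sealing Cldn4. Their promoter sequences are shown since these are the genes whose level passed a test, each from 250 bases before to 50 bases after the RefSeq start (build GRCm38.p6, gene strand). For Cldn15 the RefSeq start lies downstream of the GENCODE start, so its window falls inside the gene span given below. Capitals mark matches, on either strand, to the AP-1 motif TGANTCA, the E-box CANNTG and the GC box GGGCGG.
Cldn15 (chr5:136967619-136967918, plus strand): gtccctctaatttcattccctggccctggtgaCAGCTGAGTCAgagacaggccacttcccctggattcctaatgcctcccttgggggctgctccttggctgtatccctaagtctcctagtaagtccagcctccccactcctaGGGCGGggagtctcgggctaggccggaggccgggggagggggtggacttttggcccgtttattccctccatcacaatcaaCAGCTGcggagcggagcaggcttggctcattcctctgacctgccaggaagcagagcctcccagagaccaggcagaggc
Cldn2 (chrX:139800558-139800857, plus strand): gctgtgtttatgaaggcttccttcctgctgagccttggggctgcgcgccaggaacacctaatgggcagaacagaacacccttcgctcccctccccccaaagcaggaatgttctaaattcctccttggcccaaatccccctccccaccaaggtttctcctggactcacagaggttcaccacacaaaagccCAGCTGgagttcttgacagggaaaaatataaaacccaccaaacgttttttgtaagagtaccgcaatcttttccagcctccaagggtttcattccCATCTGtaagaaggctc
Cldn4 (chr5:134946885-134947184, minus strand): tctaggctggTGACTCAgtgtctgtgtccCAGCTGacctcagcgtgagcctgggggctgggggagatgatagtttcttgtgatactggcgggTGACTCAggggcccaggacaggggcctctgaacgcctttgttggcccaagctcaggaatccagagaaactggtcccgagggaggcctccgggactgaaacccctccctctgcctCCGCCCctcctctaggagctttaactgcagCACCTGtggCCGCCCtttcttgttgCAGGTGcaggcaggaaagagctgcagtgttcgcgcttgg
Counted from the start to the first base of the match, the AP-1 motif lay at -240 and -158 in Cldn4 and at -214 in Cldn15, where it overlapped an E-box at -218. The AP-1 letters occur in 7.81% of 32851 mouse promoter windows of this length, the E-box in 72.3% and the GC box in 35.7%. The CDX core TTTATNG, also searched, is in 10.9% of all windows and in none of these 3, and a match or its absence describes only the letters of these 300 bases. RefSeq promoter entries matched 9 of the 10 genes.

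Cldn15 encodes a cation-selective claudin that, in mice, lets sodium return to the lumen of the small intestine, where it drives the uptake of glucose. The gene lies on chromosome 5 (136966616 to 136975858, mm10, plus strand; ENSMUSG00000001739). Its level in FLASH libraries 1, 2, 4, 5, 6, 7 and 9 was 88.2, 73.5, 384, 394, 135, 93.8 and 241 CPM. The CONV libraries 2, 3, 5, 6 and 7 had 367, 518, 444, 419 and 673 CPM, and control libraries ran from 277 to 506 CPM with a median of 406. In all, 5 of 7 FLASH libraries were below every CONV library and every control library, while FLASH 4 and FLASH 5 lay inside the range of both.

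The mean was 201 ± 140 CPM in FLASH (SD, n = 7), 484 ± 119 CPM in CONV (n = 5) and 412 ± 79.1 CPM in controls (n = 6). Cldn15 fell by 1.27 ± 0.37 on the log2 scale in FLASH against CONV (SE; 95% confidence interval -2.04 to -0.50; adjusted p = 0.0217) and by 1.03 ± 0.35 in FLASH against control (-1.77 to -0.29; adjusted p = 0.0272). The CONV against control difference was 0.23 ± 0.38 (-0.57 to 1.03; adjusted p = 0.666). The FLASH against CONV call was lost without CONV 7 (-1.12, adjusted p = 0.0658). The FLASH against control call was lost without FLASH 6 (-0.95, adjusted p = 0.0552), with every gene of at least 1 count tested (-1.01, adjusted p = 0.0535), and without control 6, CONV 6 and FLASH 1 together (-0.80, adjusted p = 0.0903).

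Of the 10 genes, setting aside Cldn1 with its library at 0 counts, Cldn15 had the widest spread within FLASH, where the highest library was 5.36 times the lowest, against 1.84 times in CONV and 1.83 times in controls. FLASH libraries 1, 2, 6 and 7, which had 73.5 to 135 CPM of Cldn15, summed to 100, 113, 107 and 103 CPM over 6 mesothelium markers, and FLASH 4, 5 and 9 to 72.9, 58.7 and 56.0 CPM. The split follows the Cldn15 levels themselves and is a description only. FLASH 9, at 241 CPM of Cldn15, was also below every CONV and control library. Of that list the defining markers Msln, Upk3b, Wt1 and Lrrn4 were under 1 CPM in every group, so that Krt7 and Upk1b carried the sums, and their part in the Cldn15 values was not tested. Crypt marker sums did not follow the same order, with 8270, 5240, 4100 and 4060 CPM in FLASH 1, 2, 6 and 7, and 4420, 3890 and 2690 CPM in FLASH 4, 5 and 9. Smooth muscle marker sums did part these libraries. They were 1090, 658, 1120 and 1330 CPM in FLASH 1, 2, 6 and 7, and 422, 628 and 561 CPM in FLASH 4, 5 and 9. The sums of the remaining marker lists overlapped, and the split is thus not particular to the mesothelium list.

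As a description, the transcripts whose log2 CPM followed Cldn15 most closely over the 18 libraries were Trim34a (Pearson r = 0.97, 0.95 within groups), Brip1os (0.97, 0.93 within groups) and Gmcl1 (0.96, 0.93 within groups). Trim34a ranged from 1.88 to 13.4 CPM in FLASH, from 12.7 to 23.5 CPM in CONV and from 12.2 to 20.4 CPM in controls. Its lowest libraries were FLASH 2, FLASH 1, FLASH 7 and FLASH 6, the same 4 as for Cldn15. Gmcl1 had 11.7 to 18.3 CPM in those 4 libraries, 25.8 to 38.5 CPM in the other FLASH libraries, 42.1 to 60.6 CPM in CONV and 28.1 to 48.3 CPM in controls. Among the rest of the 10 genes the correlation of highest size with Cldn15 within groups was -0.57, for Cldn1, with a value of 0.04 for Tjp1. Cldn1 had at most 20 counts per library, so its value is uncertain.

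**Figure D3:**
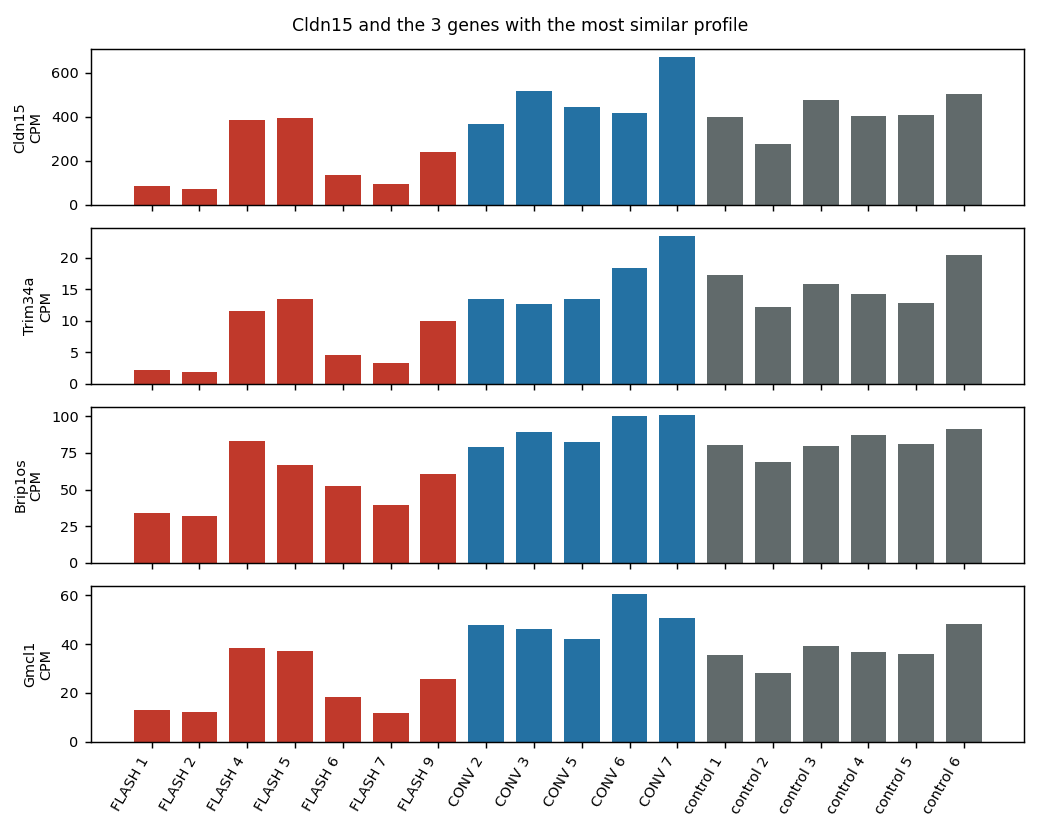
Level of Cldn15 and of the 3 transcripts most like it in each of the 18 libraries (bars, CPM on linear axes that start at 0; libraries grouped as FLASH, CONV and control). FLASH 1, 2, 6 and 7 have the lowest bars for Cldn15, at 88.2, 73.5, 135 and 93.8 CPM, and are low for the other transcripts too.

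Cldn2, the other pore-former, opens a path for cations and water and in the adult mouse intestine is mainly a crypt claudin. It is X-linked (139800828 to 139811386, mm10, plus strand; ENSMUSG00000047230). FLASH libraries had 59.8 CPM at the lowest, 66.1 at the median and 113 at the highest. CONV libraries had 86.9, 76.0, 90.7, 102 and 108 CPM, and controls had 37.8, 60.1 and 89.2 CPM as lowest, median and highest. Of the CONV libraries 3 exceeded every control library, and the other 2 lay within the control range.

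Means were 79.8 ± 21.7 CPM in FLASH, 92.8 ± 12.7 CPM in CONV and 60.4 ± 17.0 CPM in controls. Cldn2 rose in CONV against control by 0.62 ± 0.21 (log2, SE; 95% interval 0.18 to 1.05; adjusted p = 0.0399), a 1.54-fold difference. The FLASH against control value was 0.40 ± 0.19 (0.00 to 0.80; adjusted p = 0.107), and FLASH against CONV gave -0.22 ± 0.20 (-0.64 to 0.20; adjusted p = 0.478), so that a difference between the dose rates was not shown. Without control 2, FLASH against control passed at 0.58 (adjusted p = 0.022). The CONV call held in 16 of 30 alternatives. It was lost with a replicate block (0.64, adjusted p = 0.112), also together with the length and GC correction (0.51, adjusted p = 0.168). It was lost without CONV 2, 5, 6 or 7 or without control 1, 3, 4 or 5 (log2 fold changes of 0.51 to 0.76 over all single omissions), with the length and GC correction (0.49, adjusted p = 0.082), on library totals (0.38, adjusted p = 0.225), with every gene of at least 1 count tested (0.65, adjusted p = 0.0545) and without control 6, CONV 6 and FLASH 1 together (0.52, adjusted p = 0.0551).

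The sealing claudins Cldn3 and Cldn4 are receptors for a clostridial enterotoxin and lie head to head on chromosome 5, with starts 39280 bp apart (Cldn4 134945119 to 134946934, minus strand, ENSMUSG00000047501; Cldn3 134986214 to 134987472, plus strand, ENSMUSG00000070473; mm10). FLASH libraries had 41.3, 113 and 167 CPM of Cldn4 as lowest, median and highest. The CONV libraries had 52.5, 66.9, 62.9, 78.4 and 95.1 CPM, and controls ran from 50.1 to 93.3 CPM with a median of 75.7. In FLASH 5 of 7 libraries were above every CONV and every control library, and FLASH 4 was the lowest of all 18.

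Cldn4 averaged 112 ± 39.1 CPM in FLASH, 71.1 ± 16.3 CPM in CONV and 71.5 ± 16.3 CPM in controls. It rose in FLASH against control by 0.65 ± 0.24 (log2, SE; 95% interval 0.14 to 1.15; adjusted p = 0.0413). In FLASH against CONV the value was also 0.65 ± 0.25 (0.12 to 1.19), with an adjusted p of 0.077 that missed the threshold, and in CONV against control it was -0.01 ± 0.26 (-0.55 to 0.54; adjusted p = 0.987). The FLASH against control call held in 13 of 30 alternatives and was lost without FLASH 1, 2, 5, 6 or 9 or without control 1, 2, 4 or 5 (0.52 to 0.83 over all single omissions). It was also lost on library totals (0.27, adjusted p = 0.332), with the length and GC correction (0.48, adjusted p = 0.0673), by limma-voom (0.57, adjusted p = 0.0799), by limma-trend on the authors' log2 values (0.61, adjusted p = 0.0952), with only these groups fitted (0.64, adjusted p = 0.0626) and without control 6, CONV 6 and FLASH 1 together (0.59, adjusted p = 0.0689). A replicate block removed the FLASH against control call as well (0.56, adjusted p = 0.159). With the block and the length and GC correction together the value was 0.37 (adjusted p = 0.235). In FLASH against CONV, Cldn4 passed without FLASH 4 at 0.84 (adjusted p = 0.00669), with the length and GC correction at 0.73 (adjusted p = 0.0219) and by DESeq2 at 0.68 (adjusted p = 0.0448).

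Its neighbour Cldn3 did not pass in any comparison. Levels were 290 ± 78.6 CPM in FLASH, 291 ± 49.6 CPM in CONV and 255 ± 53.9 CPM in controls. The FLASH against CONV difference was -0.00 with an interval of -0.40 to 0.39, its sign turned under several alternatives, and FLASH against control and CONV against control both gave 0.19 (adjusted p = 0.444 and 0.484). Across the 18 libraries Cldn3 and Cldn4 had a correlation of 0.71 (0.79 within groups), given as a description. Mettl27, which lies beside Cldn4, had 5.58 CPM in FLASH, 5.79 CPM in CONV and 7.03 CPM in controls, with an adjusted p of 0.153 in FLASH against control. Cldn3 shares 40 bases of exon with the antisense gene Wbscr25 and, since the sources used here do not say whether strand was used in counting, reads there cannot be assigned with certainty.

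Cldn7 (chromosome 11, 69964779 to 69967885, mm10, plus strand) is needed in mice for an intact intestinal epithelium and is found along the lateral membrane as well as in the junction. It had 550, 805 and 1170 CPM in FLASH as lowest, median and highest. CONV libraries had 724, 635, 595, 759 and 644 CPM, and controls ran from 445 to 931 CPM with a median of 634. The groups overlapped, and no comparison passed: 0.33 ± 0.19 in FLASH against control (95% interval -0.07 to 0.73; adjusted p = 0.18), 0.02 ± 0.21 in CONV against control (adjusted p = 0.964) and 0.32 ± 0.20 in FLASH against CONV (adjusted p = 0.281). With the length and GC correction FLASH against CONV passed at 0.49 (adjusted p = 0.0208).

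Cldn1 (chromosome 16, 26356642 to 26371841, mm10, minus strand), a sealing claudin best known from the epidermis, was at the limit of detection, with 0 to 17 counts per library in FLASH, 0 to 7 in CONV and 6 to 20 in controls. It had 0 counts in FLASH 4 and in CONV 6, which allows up to 0.132 CPM and 0.135 CPM (3 counts; counting error only). Means were 0.349 ± 0.227 CPM in FLASH, 0.115 ± 0.114 CPM in CONV and 0.436 ± 0.195 CPM in controls. The CONV against control value was -1.90 ± 0.71 (95% interval -3.39 to -0.41; adjusted p = 0.0609), and FLASH against CONV gave 1.59 ± 0.70 (0.12 to 3.07; adjusted p = 0.116). The CONV against control value passed by DESeq2 (-1.92, adjusted p = 0.0311), on library totals (-2.09, adjusted p = 0.0431) and with the length and GC correction (-2.09, adjusted p = 0.0426), and also without FLASH 4 (-1.90, adjusted p = 0.0316), CONV 5 (-2.48, adjusted p = 0.0399) or control 6 (-2.03, adjusted p = 0.0335). Without FLASH 4 the FLASH against CONV value passed too (1.85, adjusted p = 0.0338). Of 28 alternatives that tested Cldn1, it passed in 6 in CONV against control and in 1 in FLASH against CONV. A filter on a mean of 1 CPM left it untested. So did fitting only the groups compared, in both of these comparisons.

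Cldn23, a claudin on chromosome 8 (35824712 to 35826559, mm10, minus strand), had 16.9 ± 6.44 CPM in FLASH, 16.2 ± 7.36 CPM in CONV and 23.8 ± 5.84 CPM in controls. The log2 fold changes were -0.49 ± 0.27 in FLASH against control (adjusted p = 0.161) and -0.55 ± 0.30 in CONV against control (adjusted p = 0.171), with 0.07 ± 0.28 in FLASH against CONV (adjusted p = 0.899). Both differences from control passed with the length and GC correction (-0.66, adjusted p = 0.0371 in FLASH, and -0.81, adjusted p = 0.0383 in CONV). The FLASH value passed on library totals too (-0.87, adjusted p = 0.013), and missed the threshold with the correction and the replicate block together (-0.71, adjusted p = 0.0627). Without CONV 7, which had the highest level in CONV (28.6 CPM), the CONV value was -0.86 (adjusted p = 0.0436).

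Expressed as a share of the 7 claudins per kb, Cldn15 made up 12.0 ± 9.31% of claudin transcripts in FLASH, 25.7 ± 3.97% in CONV and 24.1 ± 1.85% in controls. Single FLASH libraries held between 3.50 and 26.7%, against 21.2 to 30.4% in CONV and 22.5 to 27.2% in controls. Cldn7 made up 50.1 ± 6.79% in FLASH, 39.6 ± 5.43% in CONV and 41.8 ± 2.73% in controls, and Cldn4 7.10 ± 1.85%, 4.42 ± 0.57% and 4.90 ± 0.756%. Cldn3 took a like share in the 3 groups (26.7, 26.1 and 25.1%), and Cldn2 was the smaller of the pore-formers throughout (2.97, 3.18 and 2.45%). Shares add to a whole, so a lower Cldn15 raises the others, and they were not tested.

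**Figure D4:**
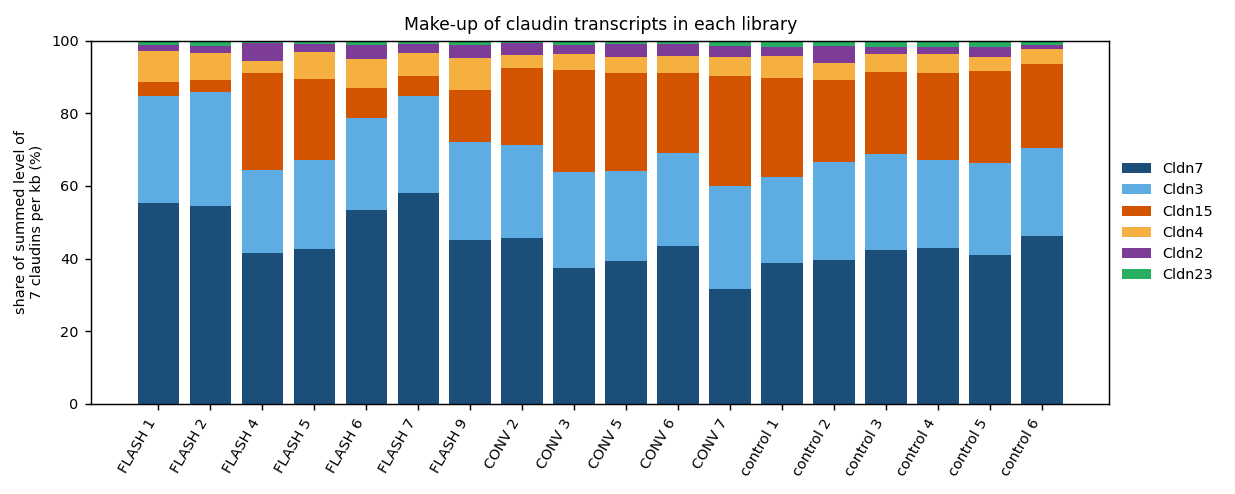
Share of each claudin among the 7 claudins (percent of summed CPM per kb) in each library, stacked, with FLASH, CONV and control libraries from left to right; Cldn1 is counted in the sum and not drawn. Cldn15 takes 3.50 to 26.7% in FLASH libraries, 21.2 to 30.4% in CONV and 22.5 to 27.2% in controls, and Cldn7 is the largest share in every group on average.

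Occludin, a membrane protein of the strands and of the points where several cells meet (chromosome 13, 100496507 to 100552718, mm10, minus strand), had 157 ± 28.9 CPM in FLASH, 131 ± 20.6 CPM in CONV and 133 ± 20.4 CPM in controls. No comparison passed (0.23 ± 0.15, -0.03 ± 0.16 and 0.27 ± 0.16 on the log2 scale in FLASH against control, CONV against control and FLASH against CONV; adjusted p = 0.224, 0.896 and 0.241). Over the 18 libraries Ocln ran most closely with the epithelial adhesion gene Epcam (r = 0.84, 0.80 within groups), and within groups its correlation was 0.84 with Cldn23 and 0.82 with Cldn3.

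F11r, an immunoglobulin-like adhesion protein of the junction, lies on chromosome 1 (171437535 to 171464603, mm10, plus strand). It had the smallest SD relative to its mean of the 10 genes in FLASH (9.19%) and in controls (14.9%). Levels were 213, 246 and 274 CPM as lowest, median and highest in FLASH, 224, 244, 234, 244 and 293 CPM in CONV, and 152, 198 and 242 CPM in controls. Means of 244 ± 22.4 CPM in FLASH and 248 ± 26.7 CPM in CONV stood against 199 ± 29.6 CPM in controls. The changes were 0.29 ± 0.12 in FLASH against control (95% interval 0.04 to 0.54; adjusted p = 0.0591) and 0.32 ± 0.13 in CONV against control (0.05 to 0.59; adjusted p = 0.0809), neither past the threshold, with -0.02 ± 0.13 between the dose rates. DESeq2 called both (0.34, adjusted p = 0.0125, and 0.33, adjusted p = 0.0341). The FLASH value also passed by limma-voom (0.30, adjusted p = 0.0477) and on the authors' log2 values (0.34, adjusted p = 0.0498), and without FLASH 4 (0.36, adjusted p = 0.0342) or control 3 (0.36, adjusted p = 0.0311).

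Tjp1 (chromosome 7, 65296165 to 65527781, mm10, minus strand) encodes zonula occludens 1, the scaffold that links claudins and occludin to actin. FLASH libraries had 47.5, 92.9 and 135 CPM as lowest, median and highest. CONV libraries had 37.8, 72.0, 82.1, 35.1 and 50.0 CPM, and controls had 28.9, 97.2 and 107 CPM as lowest, median and highest. Control 6 was the lowest of all 18, far under the other controls, and the groups overlapped.

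Means were 89.9 ± 26.3 CPM in FLASH, 55.4 ± 20.8 CPM in CONV and 83.2 ± 30.8 CPM in controls. Tjp1 gave 0.70 ± 0.30 in FLASH against CONV (95% interval 0.06 to 1.33; adjusted p = 0.111), -0.59 ± 0.31 in CONV against control (-1.24 to 0.07; adjusted p = 0.17) and 0.11 ± 0.28 in FLASH against control (adjusted p = 0.783). Without control 6 the CONV difference from control was -0.76 (adjusted p = 0.0269) and the FLASH difference from CONV 0.70 (adjusted p = 0.0431), so that both calls turned on 1 library.

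Tjp1 has the longest exon sequence of the 10 genes, 7811 bp, and its level ran with how each library represented long transcripts. That trend was read as the slope of a library's log2 expression, relative to the mean of all libraries, on log2 transcript length. The slope was -0.402 in control 6, -0.407 in CONV 6, -0.325 in FLASH 1, -0.296 in CONV 2 and -0.20 in CONV 7, and these were the 5 libraries with the least Tjp1 (28.9 to 50.0 CPM). The remaining slopes lay between -0.0888 and 0.299, with 63.9 to 135 CPM of Tjp1. With an offset for length and GC content in each library, the values were 0.42 in FLASH against CONV (adjusted p = 0.067), -0.24 in CONV against control (adjusted p = 0.291) and 0.18 in FLASH against control (adjusted p = 0.361). Transcripts with a profile like that of Tjp1 included Afdn, whose product afadin anchors nectins, with r = 0.99, and Supt6, a transcription elongation factor, with r = 0.98. For Cldn15 the same offset gave -1.17 in FLASH against control (adjusted p = 0.00925) and -1.17 in FLASH against CONV (adjusted p = 0.0227).

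**Figure D5:**
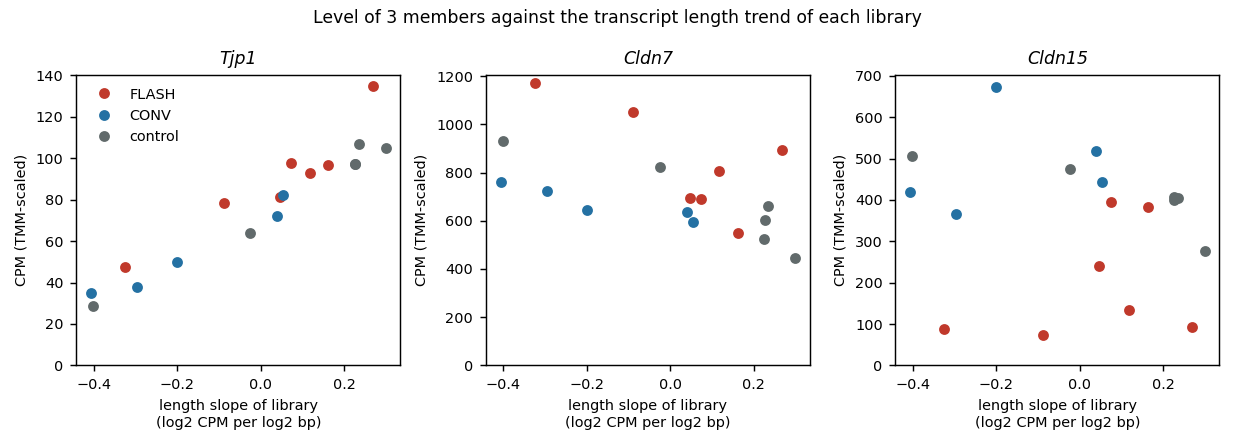
Level of Tjp1, Cldn7 and Cldn15 in each library (CPM) against the slope of that library's log2 expression on log2 transcript length, coloured by group. Tjp1 is lowest (28.9 to 50.0 CPM) in the 5 libraries with slopes of -0.20 or less, and Cldn15 is low in FLASH libraries with slopes from -0.325 to 0.268.

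For the other 7 genes the transcript with the closest profile over the same 18 libraries, given as a description, was Lrpap1 for Cldn1 (r = 0.85), Ccp110 for Cldn2 (0.82), Cwc15 for Cldn3 (0.88), Dcaf15 for Cldn4 (0.87), Ccz1 for Cldn7 (0.95), Mfsd4a for Cldn23 (0.89) and Apol9a for F11r (0.90). Within groups these correlations were 0.78, 0.82, 0.87, 0.82, 0.95, 0.87 and 0.87.

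Around the 10 genes, 80 further junction genes in 5 lists were tested. In FLASH against control 13 rose and 13 fell, where 37.7% of all genes passed. In CONV against control 5 rose and 8 fell, where 22.2% of all genes passed. In FLASH against CONV 14 were higher and 3 lower, where 9.88% of all genes passed higher and 9.91% lower. On library totals the counts in these 3 comparisons were 8 and 29, 2 and 11, and 10 and 7. With the length and GC offset the counts were 17 and 15, 5 and 11, and 15 and 7. Of the calls in the main fit, 26 of 26, 12 of 13 and 16 of 17 also passed with that offset.

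Of 25 other claudins listed, 24 were matched and 4 had enough counts. Cldn8, a sealing claudin of the distal bowel and kidney tubule, fell in FLASH against control (-2.86 ± 0.65; 0.276 ± 0.307 CPM in FLASH, 2.08 ± 0.851 CPM in controls; adjusted p = 0.00217) and in CONV against control (-4.54 ± 0.85; 0.0788 ± 0.0814 CPM in CONV; adjusted p = 0.00135). It was scarce in every group, and only its level in controls carried it past the count filter. In both irradiated groups its mean was below that of Cldn1, a gene at the limit of detection, so the size of its falls is uncertain. Cldn12, the most abundant of the 4, had 39.6 ± 7.02 CPM in FLASH, 48.1 ± 6.58 CPM in CONV and 41.3 ± 11.2 CPM in controls, and did not pass. The endothelial claudin Cldn5 had 4.73 ± 1.19, 4.44 ± 0.918 and 5.84 ± 3.65 CPM in the same groups and did not pass either.

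Among 13 other junction membrane proteins, 3 rose and 3 fell in FLASH against control (37.7% of all genes passed), 2 rose in CONV against control (22.2%), and 1 was higher and 1 lower in FLASH than in CONV (19.8%). Ildr1, one of the angulins of tricellular junctions, rose in FLASH against control (1.76 ± 0.28, adjusted p = 0.000113) and was higher in FLASH than in CONV (1.63 ± 0.30, adjusted p = 0.00172), with 11.6 ± 4.88 CPM in FLASH, 3.77 ± 0.49 CPM in CONV and 3.43 ± 1.14 CPM in controls. Bves, an adhesion protein also strongly expressed in muscle, fell in FLASH against control (-2.96 ± 0.38, adjusted p = 1.14e-05) and was lower in FLASH than in CONV (-2.18 ± 0.38, adjusted p = 0.00123), at 0.476 ± 0.22, 2.18 ± 0.977 and 3.77 ± 1.49 CPM in FLASH, CONV and control libraries. Marveld3, a relative of occludin, rose in FLASH (0.50 ± 0.18, adjusted p = 0.035) and in CONV (0.86 ± 0.20, adjusted p = 0.00529) against control. Igsf5, a junctional adhesion molecule whose symbol covers a pair of overlapping Ensembl IDs and is therefore uncertain, rose in both too (1.03 ± 0.25 and 1.16 ± 0.27), and Jam3 fell in FLASH (-0.99 ± 0.27, adjusted p = 0.00867). Epcam, at 2000 ± 232 CPM in FLASH, 1740 ± 140 CPM in CONV and 1740 ± 251 CPM in controls, did not pass, nor did Lsr.

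The CONV against control value of Bves was -0.78 ± 0.38 (adjusted p = 0.134). Of 8 smooth muscle markers, 8 fell in FLASH against control, 3 fell in CONV against control and 0 passed in FLASH against CONV, with median log2 fold changes of -1.39, -1.09 and -0.16; over all genes 21.0%, 12.0% and 9.91% passed lower. The FLASH against CONV count was 0 by edgeR, DESeq2, limma-voom and limma-trend, and 0 of the 8 had an unadjusted p under 0.05 in edgeR. In CONV against control 5 fell by DESeq2, 4 by limma-voom and 2 by limma-trend, and 7 of the 8 had an unadjusted p under 0.05 in edgeR. Their summed levels were 422 to 1330 CPM in FLASH, 185 to 1260 CPM in CONV and 1330 to 3760 CPM in controls. Their part in the Bves and Mylk results was not tested. Mylk, myosin light chain kinase, which acts on the junction's actin belt and is abundant in smooth muscle, fell in FLASH against control (-1.65 ± 0.27, adjusted p = 0.000133) and in CONV against control (-0.97 ± 0.30, adjusted p = 0.0268).

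Of 22 plaque scaffold and polarity genes tested, 3 rose and 4 fell in FLASH against control (37.7% of all genes passed), 1 rose and 1 fell in CONV against control (22.2%), and 4 were higher and 1 lower in FLASH than in CONV (19.8%). Mpp5, the Crumbs complex scaffold Pals1, rose in FLASH (1.0 ± 0.13, adjusted p = 1.06e-05) and in CONV (0.45 ± 0.13, adjusted p = 0.0223) against control and was higher in FLASH than in CONV (0.54 ± 0.13, adjusted p = 0.00819), with 173 ± 22.8, 119 ± 15.4 and 86.8 ± 10.7 CPM in FLASH, CONV and control libraries. Pard6b of the Par polarity complex was higher in FLASH than in controls (0.88 ± 0.14, adjusted p = 0.000112) and than in CONV (0.63 ± 0.15, adjusted p = 0.00721), and so was the scaffold Magi3 (0.86 ± 0.19 and 0.94 ± 0.20). Pard6a, on the same list, went the other way and was lower in FLASH (1.53 CPM) than in CONV (3.63 CPM; -1.24, adjusted p = 0.023). Amotl2, an angiomotin, was higher in FLASH than in CONV (0.96 ± 0.28, adjusted p = 0.0202), and its relative Amot fell in FLASH (-1.01 ± 0.31, adjusted p = 0.0159) and in CONV (-1.68 ± 0.36, adjusted p = 0.00334) against control. Tjp3, zonula occludens 3 and the most abundant scaffold per kb in controls, fell in FLASH against control (-0.43 ± 0.14, adjusted p = 0.0196), as did Ybx3, a binding partner of zonula occludens 1 (-0.56 ± 0.13, adjusted p = 0.00315).

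In the adherens junction and desmosome list of 14 genes, 5 were higher and 1 lower in FLASH than in CONV (19.8% of all genes passed), 3 fell in CONV against control (22.2%), and 2 rose and 1 fell in FLASH against control (37.7%). Cdh1, E-cadherin, had 595 ± 146 CPM in FLASH, 337 ± 96.8 CPM in CONV and 573 ± 171 CPM in controls. It fell in CONV against control (-0.76 ± 0.25, adjusted p = 0.0386) and was higher in FLASH than in CONV (0.82 ± 0.25, adjusted p = 0.0266). The desmosomal cadherin Dsg2 did the same (-0.97 ± 0.26 and 1.05 ± 0.25), and desmoplakin (Dsp) fell in CONV against control (-1.41 ± 0.46, adjusted p = 0.0343). Nectin1 rose in FLASH against control (1.0 ± 0.26, adjusted p = 0.00631) and was higher in FLASH than in CONV (1.67 ± 0.29, adjusted p = 0.00111). Pkp3 was higher in FLASH in both comparisons (0.43 ± 0.13 against control, 0.51 ± 0.14 against CONV), Nectin2 fell in FLASH against control (-0.52 ± 0.15), and Nectin3 was lower in FLASH than in CONV (-0.42 ± 0.12, adjusted p = 0.0247).

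Of 27 junction regulators, 5 rose and 4 fell in FLASH against control (37.7% of all genes passed), 2 rose and 3 fell in CONV against control (22.2%), and the 4 that passed in FLASH against CONV (19.8%) were all higher in FLASH. Ezr, ezrin, which ties the microvillar membrane to actin, rose in FLASH against control by 1.46 ± 0.20 (adjusted p = 3.17e-05) and was higher in FLASH than in CONV by 1.26 ± 0.22 (adjusted p = 0.00106), at 2510 ± 557 CPM in FLASH, 1050 ± 229 CPM in CONV and 915 ± 233 CPM in controls. The membrane serine proteases Prss8 (1.04 ± 0.15 and 0.75 ± 0.16) and Tmprss2 (1.19 ± 0.15 and 0.65 ± 0.16) were higher in FLASH than in controls and than in CONV, and Tmprss2 also rose in CONV against control (0.54 ± 0.16, adjusted p = 0.021). Spint1, an inhibitor of membrane serine proteases, rose in FLASH (0.51 ± 0.14) and in CONV (0.49 ± 0.15) against control. Grhl1, an epithelial transcription factor, was scarce, with 2.11 ± 1.18 CPM in FLASH, 0.623 ± 0.226 CPM in CONV and 0.575 ± 0.192 CPM in controls, and was higher in FLASH than in CONV (1.76 ± 0.42, adjusted p = 0.00821). Hnf4a, at 667 ± 114, 771 ± 123 and 749 ± 137 CPM in FLASH, CONV and controls, did not pass.

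Several of these calls rested on single libraries. In CONV against control, those of Cdh1 (-0.92 to -0.64 over single omissions), Dsp (-1.65 to -1.16) and Myh9, the heavy chain of non-muscle myosin (-1.58 ± 0.55, adjusted p = 0.0467, and -1.90 to -1.37), were each lost without CONV 2, 6 or 7 and without control 1, 2, 4 or 5, Cdh1 also without control 3 and Myh9 also without FLASH 5, 6 or 9. The calls of Mpp5 (0.38 to 0.51) were lost without CONV 2 or 6 or control 2 or 5, those of Spint1 (0.41 to 0.55) also without control 1, and those of Tmprss2 (0.44 to 0.62) without CONV 2 or 6 or control 2. Mylk in CONV against control was lost without CONV 2 or 6 or control 1 (-1.09 to -0.75) and was -0.47 with the length and GC offset (adjusted p = 0.126). In FLASH against CONV, Amotl2 was lost without CONV 2, 6 or 7 (0.84 to 1.13) and Nectin3 without any of FLASH 2, FLASH 7, CONV 3, CONV 6, CONV 7, control 1 and control 5 (-0.45 to -0.37), and Tmprss2 was 0.41 with the offset (adjusted p = 0.259). Pkp3 was 0.07 on library totals in FLASH against control (adjusted p = 0.70), and Magi3 (0.49, adjusted p = 0.0671) and Nectin1 (0.61, adjusted p = 0.0928) also missed the threshold there. The rise of Marveld3 in FLASH against control was lost there too, and 4 junction regulators rose, against 5 in the main fit. In that comparison 21 of 26 calls held on library totals. On the same scale the CONV against control calls of Mpp5 (0.24, adjusted p = 0.182), Tmprss2 (0.32, adjusted p = 0.082) and Spint1 (0.29, adjusted p = 0.106) were lost, as were the FLASH against CONV calls of Amotl2 (0.78, adjusted p = 0.0721) and Pkp3 (0.35, adjusted p = 0.0995). The FLASH against CONV calls of Cdh1 and Ctnna1 were lost there as well, so that 13 of the 17 calls in that comparison held. A replicate block removed the FLASH against CONV calls of Mpp5, Tmprss2, Pkp3, Amotl2 and Nectin3 (adjusted p = 0.0503 to 0.0703). It also removed the CONV against control calls of Mpp5, Tmprss2, Cdh1, Dsp and Myh9 (adjusted p = 0.0538 to 0.0978). Ezr, Ildr1, Bves, Dsg2 and Prss8 kept every call named above under each alternative that tested them. Cldn8 did so too, but it was tested only through its level in controls, and a filter of a mean of 1 CPM left it untested.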

How the data were processed

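Whole jejunum RNA of 18 libraries was sequenced (stranded mRNA libraries, 250 ng of input, 100 bp single-end reads), per the labels' protocols. Groups and library numbers came from the labels. The authors' tools were STAR, Salmon (versions not given in the sources used here), edgeR 3.40.2 and limma 3.54.2 with build mm10, per the submitters' processing notes, which give no roles. The first deposited table gives expected counts, that is estimated reads for each Ensembl gene without scaling, and these were rounded here to whole numbers. Libraries held 19.9 to 30.2 M counts. Libraries all differed beyond sampling noise (chi-square divided by its degrees of freedom of at least 25.15 for any pair). A second deposited table held log2 values, normalized by the authors, of 19193 genes, used for an alternative only. Symbols, lengths and positions came from GENCODE vM21 (mm10), and promoters from RefSeq (GRCm38.p6).

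Tests were edgeR 4.0.16 quasi-likelihood tests (R 4.3.3) of all 18 libraries in 1 fit, with filterByExpr, TMM factors and Benjamini-Hochberg adjustment over 16257 genes, at a threshold of 0.05. CPM used TMM-scaled library sizes, and CPM per kb the union of exons. Log2 fold changes are the first group named minus the second, with standard errors derived from the test. Correlations were taken on log2 CPM (prior count 2). The 10 genes, the gene lists and the alternatives were chosen with earlier results of these data known. Besides the 10 genes, the text names from each wider list in each comparison up to 4 passing genes with the smallest p and the 2 most abundant per kb in controls, and the closest of the 3 most correlated transcripts of each of the 10 genes, with the other two for Cldn15 and 1 more for Tjp1, whose other one is not reported here. Printing the rest for these genes alone was decided after their values were seen. Mettl27 was named as a neighbour, and Pard6a and Ctnna1 to complete the list of FLASH against CONV calls.

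Alternatives were DESeq2 size factors, library totals, a filter on a mean of 1 CPM, no filter beyond 1 count, DESeq2 1.42.0, limma-voom 3.58.1, limma-trend on the authors' log2 values, only the groups compared, a replicate block, an offset per library for length and GC content of transcripts (splines, 4 degrees of freedom), omission of control 6, CONV 6 and FLASH 1 as a set, and omission of every library in turn. The pipeline was tested on simulated data. Tables were made in Python 3.11.15 (pandas 2.3.3, numpy 2.4.6) and plots with matplotlib 3.10.9. Intervals and detection floors cover counting error or the spread between libraries only.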

Additional observations from a re-analysis of the deposited data

Results flagged for a closer look

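F11r in CONV 7, at 293 CPM, stood apart from the other CONV libraries (224 to 244 CPM): its gap to the nearest was 0.712 of the group's range, against a critical value of 0.71. Chance flags about 1 in 20 groups, and 30 groups were examined. Leaving out CONV 7 changed no F11r call.

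Differences between the effects of the dose rates, each measured as FLASH minus CONV in the shared fit (log2, edgeR), passed for Cldn15 among the 10 genes (-1.27, adjusted p = 0.0217; 5 of 7 FLASH libraries were below every CONV library). Of the further junction genes they passed in the positive direction for Grhl1 (1.76, adjusted p = 0.00821), Nectin1 (1.67, 0.00111), Ildr1 (1.63, 0.00172), Ezr (1.26, 0.00106), Dsg2 (1.05, 0.00746), Amotl2 (0.96, 0.0202), Magi3 (0.94, 0.00388), Cdh1 (0.82, 0.0266), Prss8 (0.75, 0.00371), Tmprss2 (0.65, 0.00777), Pard6b (0.63, 0.00721), Mpp5 (0.54, 0.00819) and Pkp3 (0.51, 0.0169). The positive list also held Ctnna1 (0.82, 0.0447). They passed in the negative direction for Bves (-2.18, 0.00123), Pard6a (-1.24, 0.023) and Nectin3 (-0.42, 0.0247).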

How the results depend on the processing

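Over 30 alternatives, Cldn15 in FLASH against CONV ran from -1.63 to -1.12 and passed in 29, and in FLASH against control it ran from -1.50 to -0.80 and passed in 27. Cldn4 in FLASH against control (0.27 to 0.83) passed in 13 of 30, and Cldn2 in CONV against control (0.38 to 0.76) in 16 of 30. Apart from single omissions, log2 changes of the 10 genes kept direction and side of the threshold in 288 cases, gained a call in 18, lost one in 16 and turned sign in 33, none of which were calls; with 1 library left out the numbers were 474, 11, 19 and 36. The causes were not tested.

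The number of the 10 genes called was 1 in CONV against control, with 0 when every gene of at least 1 count was tested, 3 by DESeq2, 2 with the length and GC offset and 0 to 3 over single omissions. In FLASH against control it was 2, with 1 under the least strict filter, 1 with only the groups compared, 0 without control 6, CONV 6 and FLASH 1 together and 0 to 3 over single omissions. In FLASH against CONV it was 1, with 2 by DESeq2, 3 with the offset, 2 without those 3 libraries and 0 to 3 over single omissions. All genes called in CONV against control numbered 3615, and 1869 to 6493 with 1 library left out, the extremes being without CONV 6 and without control 6; 2171 passed without CONV 2, 2277 without control 2 and 2359 without control 5.

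The labels do not say whether equal replicate numbers mark pairs, and most same-numbered libraries were not each other's best match. The check cannot settle pairing, since library traits such as the length trend also enter it (slopes of -0.407 in CONV 6 and -0.402 in control 6). Same-numbered libraries had deviations correlated from -0.27 to 0.61, and CONV 6 with control 6 and FLASH 4 with control 4 were the pairs matched best by their own number. With a replicate block 2525 genes passed in CONV against control, 4279 in FLASH against control and 1569 in FLASH against CONV, against 3615, 6135 and 3217 without it; of the 10 genes 0, 1 and 1 passed. With the block and the offset together, 1, 1 and 2 of the 10 passed.

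Signs turned for small differences. On library totals the values were, in CONV against control, -0.01 for Cldn3 and -0.19 for Cldn7; in FLASH against control, -0.19 for Cldn3, -0.03 for Cldn7, -0.14 for Ocln, -0.26 for Tjp1 and -0.07 for F11r; and in FLASH against CONV, -0.14 for Cldn23. With the offset, CONV against control gave -0.18 for Cldn3, -0.32 for Cldn7 and -0.00 for Cldn15 (with the block too, -0.29 for Cldn3 and -0.39 for Cldn7), FLASH against control gave -0.07 for Cldn3 (-0.08 with the block too), and FLASH against CONV gave 0.12 for Cldn3 and 0.04 for F11r (0.21 and 0.07 with the block too). The block alone gave -0.02 for Cldn7 in CONV against control and 0.08 for Cldn3 in FLASH against CONV. DESeq2, and its size factors alone, gave 0.01 for Cldn4 in CONV against control, 0.03 for Cldn3 and 0.00 for F11r in FLASH against CONV. Cldn4 in CONV against control was also 0.01 with the least strict filter and on the authors' log2 values. Cldn3 in FLASH against CONV was 0.01 with only these groups. Without control 6, CONV 6 and FLASH 1 together, Cldn4 was 0.02 and Ocln 0.09 in CONV against control, and Cldn23 -0.16 in FLASH against CONV. Over single omissions, values in CONV against control ran from -0.13 to 0.09 for Cldn4, from -0.09 to 0.13 for Cldn7 and from -0.12 to 0.04 for Ocln; in FLASH against control from -0.07 to 0.22 for Tjp1; and in FLASH against CONV from -0.08 to 0.37 for Cldn23, from -0.10 to 0.11 for Cldn3 and from -0.06 to 0.05 for F11r.

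Cldn3 and Cldn15 exchanged places by level in controls when divided by the longest transcript (ranks 3 and 2). Depth limits Cldn1, with at most 20 counts per library.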
